A study of Mus musculus with 10 samples.

Results

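The genes described are 9 transcription factors of the liver, grouped as known regulators of hepatocyte identity and of the acute phase response by a rule that uses no measured value: Hnf4a, Onecut1 and Prox1, the FOXA genes Foxa1, Foxa2 and Foxa3, and the C/EBP genes Cebpa, Cebpb and Cebpd. They are 9 of the 38922 genes in the deposited tables, and each of them passed the filter on low counts. They were chosen with earlier results of these data known. RNA was sequenced from whole liver tissue of C57BL/6N mice, an inbred strain, all of them male and 6 weeks old. One group of 5 mice received an intraperitoneal injection of CD95-Ab, an antibody that activates the death receptor Fas, at 0.5 µg/g, and the other group of 5 mice received saline. All livers were taken at 6 h, and the labels name no transgene or deletion in either group. The comparison asks how the transcripts of these factors differed between injured and control livers.

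Hepatocytes keep their differentiated state through a network of transcription factors that bind one another's genes and, together, the genes for plasma proteins, bile acid synthesis, gluconeogenesis and drug metabolism. HNF4A, a nuclear receptor, HNF6 (the product of Onecut1) and PROX1 belong to this network, and the FOXA proteins are pioneer factors that can bind their sites in closed chromatin. C/EBPα is abundant in resting hepatocytes and restrains their growth, whereas C/EBPβ and C/EBPδ bind the same kind of site as C/EBPα and are known for rapid induction in the acute phase response, when cytokines turn liver transcription towards defence proteins.

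After CD95-Ab, Cebpd and Cebpb rose, Cebpa, Foxa2 and Foxa1 fell, and Hnf4a, Foxa3, Onecut1 and Prox1 did not pass the threshold. The test was edgeR's quasi-likelihood test on the deposited counts with Benjamini-Hochberg adjustment over 13719 tested genes (written edgeR FDR below), and a gene was called at an edgeR FDR of 0.05 or less. Thus 5 of the 9 factors were called, 2 higher and 3 lower, where 47.3% of all tested genes were called, 25.4% higher and 22.0% lower. The balance of all calls turned with the scaling, from 3480 higher and 3015 lower to 3163 and 3591 with upper quartile factors. The share of factors that changed is therefore near that of the liver transcriptome as a whole. In 4 of the 9 the values of the groups did not overlap, which held for 33.3% of all tested genes. In 1 of these, Cebpd, all CD95-Ab mice were above all saline mice, as for 18.6% of tested genes, and in the other 3, Foxa1, Foxa2 and Cebpa, all were below, as for 14.7%. Values are given as CPM, counts scaled to 1000000 per mouse after TMM adjustment of the totals, which discounts the few most abundant genes. Totals ranged from 25965699 to 62097636 counts per mouse. Before TMM adjustment, 3 counts therefore corresponded to at most 0.116 per 1000000, and the lowest count of any of the 9 factors in a mouse was 57. Saline mouse 5 (TMM factor 0.869) and CD95-Ab mouse 4 (0.849) had the lowest factors of their groups, and without both of them the same numbers of factors, 2 higher and 3 lower, were called.

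**Figure D1:**
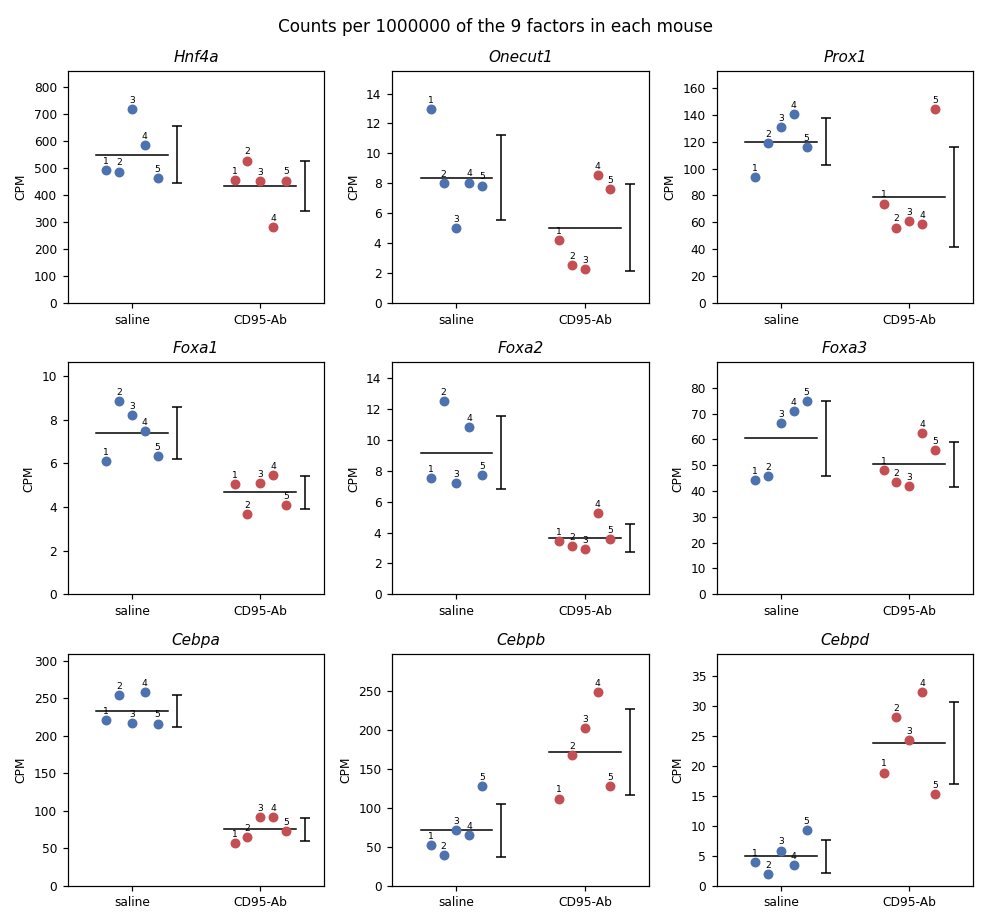
CPM (linear axes from 0) of each factor in each of the 10 mice, numbered by mouse, with the group mean as a line and the SD as a bar (n = 5 mice per group). The groups are apart for Foxa1, Foxa2, Cebpa and Cebpd, whereas single mice bring them together for Cebpb (saline mouse 5 at 127 CPM) and Prox1 (CD95-Ab mouse 5 at 144 CPM).

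Promoter sequence was available from RefSeq (GRCm38.p6) for 8 of the 9 factors (not Cebpd), in 12 windows of 250 bases before and 50 bases after an annotated transcription start. The 4 called factors among them are printed here, from 250 bases before the start to 30 bases after it. They were chosen because they include changes in both directions within the C/EBP family and the falls of Foxa1 and Foxa2 within the FOXA family. Capitals mark each match, on either strand, to one of 11 textbook motifs: C/EBP (TTNNGCAA), FOXA (TNTTTAC), HNF4 (CAAAGTNCA), HNF6 (ATNGAT), STAT (TTCNNNGAA), NF-kB (GGGANTTTC), the CRE core (TGACG), AP-1 (TGANTCA), SP1 (GGGCGG), the CCAAT box (CCAAT) and the TATA box (TATAAA).
Cebpa, chr7:35119043-35119322, plus strand: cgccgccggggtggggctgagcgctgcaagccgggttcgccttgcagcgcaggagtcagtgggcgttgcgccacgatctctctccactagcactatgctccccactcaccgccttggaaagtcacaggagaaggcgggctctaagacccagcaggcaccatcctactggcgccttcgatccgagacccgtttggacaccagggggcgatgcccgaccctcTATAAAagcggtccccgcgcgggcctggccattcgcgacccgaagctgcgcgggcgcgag
Cebpb, chr2:167688665-167688944, plus strand: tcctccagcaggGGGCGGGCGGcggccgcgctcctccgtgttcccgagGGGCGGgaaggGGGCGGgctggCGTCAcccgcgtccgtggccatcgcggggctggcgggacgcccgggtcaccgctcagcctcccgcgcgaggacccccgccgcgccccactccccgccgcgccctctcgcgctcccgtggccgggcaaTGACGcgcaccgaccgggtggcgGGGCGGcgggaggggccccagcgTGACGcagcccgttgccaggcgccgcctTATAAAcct
Foxa2, chr2:148046940-148047219, minus strand: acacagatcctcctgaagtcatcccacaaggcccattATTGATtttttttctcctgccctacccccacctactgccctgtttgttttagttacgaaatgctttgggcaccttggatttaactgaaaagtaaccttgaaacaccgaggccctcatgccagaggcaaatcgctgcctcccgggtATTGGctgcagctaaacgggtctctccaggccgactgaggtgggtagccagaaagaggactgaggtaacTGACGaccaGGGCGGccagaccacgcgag
Foxa1, chr12:57546082-57546361, minus strand: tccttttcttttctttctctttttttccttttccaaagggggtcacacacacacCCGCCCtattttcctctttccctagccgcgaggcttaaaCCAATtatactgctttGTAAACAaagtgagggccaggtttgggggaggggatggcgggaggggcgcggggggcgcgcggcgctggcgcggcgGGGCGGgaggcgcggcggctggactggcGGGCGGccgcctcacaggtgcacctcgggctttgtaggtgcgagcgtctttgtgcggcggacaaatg

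The Cebpa window held 1 match, a TATA box that begins 30 bases before the start. In the Cebpb window there were 9, namely 5 SP1 matches, the first pair of which overlap each other, 3 CRE cores and 1 TATA box. The TATA box match of Cebpb begins at base 22 after the start, not before it as in Cebpa. The CRE core, part of the site bound by CREB and related bZIP proteins, was present in 20.8% of the 32851 windows of all genes, SP1 in 35.7% and the TATA box in 13.6%. Of the 3 Foxa2 windows, the one shown is the furthest upstream and held 1 match each to HNF6, CCAAT, the CRE core and SP1. A FOXA match lay 141 bases before the Foxa1 start, beside 3 SP1 matches and 1 CCAAT box, and 12.4% of all windows hold a FOXA match. None of the 12 windows of the 8 factors matched C/EBP, STAT, NF-kB, HNF4 or AP-1, which were present in 10.8%, 8.3%, 1.11%, 1.41% and 7.81% of all windows, so these letters are not in these stretches and nothing follows for sites elsewhere. Matches to different motifs did not overlap in any window of the 8 factors.

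Hnf4a (chr2:163506808-163572910, plus strand, 13 exon blocks, GRCm38), the nuclear receptor at the centre of the hepatocyte network, was at 493, 487, 718, 587 and 463 CPM in saline mice 1 to 5 and at 456, 529, 451, 281 and 454 CPM in CD95-Ab mice 1 to 5. The groups overlapped, although each CD95-Ab mouse was below the saline mean of 550 CPM, and CD95-Ab mouse 4 was the lowest of the 10. The log2 fold change was -0.34 ± 0.19 (SE, n = 5 mice per group, 95% interval -0.75 to 0.07, edgeR FDR = 0.157), so a fall to the lower end of this interval and no change were both within the error.

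Onecut1 (chr9:74861921-74891781, plus strand), which encodes HNF6, was at 12.9, 8.03, 5.02, 8.04 and 7.84 CPM in saline mice 1 to 5. The values after CD95-Ab were 4.20, 2.52, 2.27, 8.56 and 7.62 CPM. Mice 1 to 3 of the CD95-Ab group lay below every saline mouse and mice 4 and 5 lay among them, and the log2 fold change of -0.73 ± 0.37 (SE, 95% interval -1.55 to 0.08, edgeR FDR = 0.127) did not pass the threshold. Without CD95-Ab mouse 4 it was -1.01 and passed (edgeR FDR = 0.0415, with 0.0415 to 0.289 over all 21 alternative analyses). The lincRNA gene Gm20649 shares 2171 exonic bases with Onecut1 on the same strand but had at most 56 counts in any mouse.

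Prox1 (chr1:190118035-190170714, minus strand), a homeobox factor of hepatocytes and of lymphatic endothelium, was at 93.8, 119, 131, 140 and 116 CPM in saline mice 1 to 5. In CD95-Ab mice 1 to 4 it was at 73.9, 56.1, 61.0 and 58.7 CPM, below every saline mouse, and in CD95-Ab mouse 5 at 144 CPM, above every saline mouse. The log2 fold change over all mice was -0.61 ± 0.25 (SE, 95% interval -1.16 to -0.06, edgeR FDR = 0.0649), and without CD95-Ab mouse 5 it was -0.94 (edgeR FDR = 0.000515, with 0.000515 to 0.146 over the 21 alternatives). The antisense gene Prox1os, which shares 133 exonic bases with Prox1, fell by 1.04 on the log2 scale (edgeR FDR = 0.0191).

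Among the pioneer factors, Foxa2 (chr2:148042877-148046969, minus strand) had values of 7.53, 12.5, 7.24, 10.9 and 7.75 CPM in saline mice 1 to 5 and 3.47, 3.12, 2.91, 5.25 and 3.59 CPM in CD95-Ab mice 1 to 5. All CD95-Ab mice were below all saline mice, at 39.9% of the saline level in the fit (log2 fold change -1.32 ± 0.21 SE, 95% interval -1.79 to -0.86, edgeR FDR = 3.55e-04). Foxa1 (chr12:57540628-57546916, minus strand) was at 6.12, 8.86, 8.20, 7.47 and 6.32 CPM without CD95-Ab and at 5.04, 3.69, 5.10, 5.45 and 4.07 CPM with it. The groups were again apart, by a smaller distance (log2 fold change -0.66 ± 0.16 SE, 95% interval -1.01 to -0.31, edgeR FDR = 0.00509). Foxa3 (chr7:19013284-19023538, minus strand) was at 44.1, 45.8, 66.4, 71.0 and 74.9 CPM in saline mice and at 47.9, 43.3, 42.0, 62.4 and 55.8 CPM after CD95-Ab. These values overlapped throughout, and the change of -0.26 ± 0.18 (SE, log2, 95% interval -0.66 to 0.13) did not pass the threshold (edgeR FDR = 0.248).

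The C/EBP genes moved in opposite directions. Cebpa (chr7:35119293-35121928, plus strand) was at 221, 255, 216, 257 and 216 CPM in saline mice 1 to 5 and at 57.5, 65.1, 91.4, 91.1 and 72.4 CPM in CD95-Ab mice 1 to 5. The highest CD95-Ab mouse was far below the lowest saline mouse, and the fitted level fell to 32.4% (log2 fold change -1.63 ± 0.15 SE, 95% interval -1.96 to -1.29, edgeR FDR = 7.81e-06). Cebpa had the largest fall of the 9 factors, and its log2 fold change was at the 1.97th percentile of all tested genes, counted from the largest fall.

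Cebpb (chr2:167688915-167690418, plus strand) was at 52.2, 39.4, 71.1, 64.8 and 127 CPM in saline mice 1 to 5 and at 112, 167, 202, 248 and 128 CPM in CD95-Ab mice 1 to 5. Each CD95-Ab mouse was above the saline mean of 71.0 CPM, but the groups overlapped because saline mouse 5 was above CD95-Ab mouse 1. The rise was 2.41-fold (log2 fold change 1.27 ± 0.31 SE, 95% interval 0.59 to 1.95, edgeR FDR = 0.00537), with a log2 range of 1.07 to 1.59 when single mice were left out. Cebpd (chr16:15887286-15891031, plus strand) had the largest rise, from 3.93, 1.93, 5.89, 3.54 and 9.29 CPM in saline mice to 18.9, 28.2, 24.4, 32.3 and 15.4 CPM. All CD95-Ab mice were above all saline mice, by 4.81-fold in the fit (log2 fold change 2.27 ± 0.36 SE, 95% interval 1.47 to 3.06, edgeR FDR = 3.55e-04). It was the only factor of the 9 that also passed a log2 fold change of 2, as did 6.59% of tested genes. Saline mouse 5 had the highest Cebpb and Cebpd of its group.

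Cebpa, Cebpb and Cebpd each consist of a single exon block, and each overlaps a gene on the opposite strand. The strand setting of the authors' quantification is not given in the sources used here, so reads of the overlapping stretches cannot be told apart. Tmem189 shares 312 exonic bases with Cebpb, had at most 690 counts in any mouse, whereas Cebpb had at least 1329, and rose by 0.57 (log2, edgeR FDR = 0.0277). Spidr shares 562 exonic bases with Cebpd, had 69 to 253 counts per mouse where Cebpd had 65 to 887, and rose from 2.66 to 6.28 CPM (log2 fold change 1.24, edgeR FDR = 4.35e-04). The overlap of Cebpa, with the antisense gene Gm45091, covers 51 bases.

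**Figure D2:**
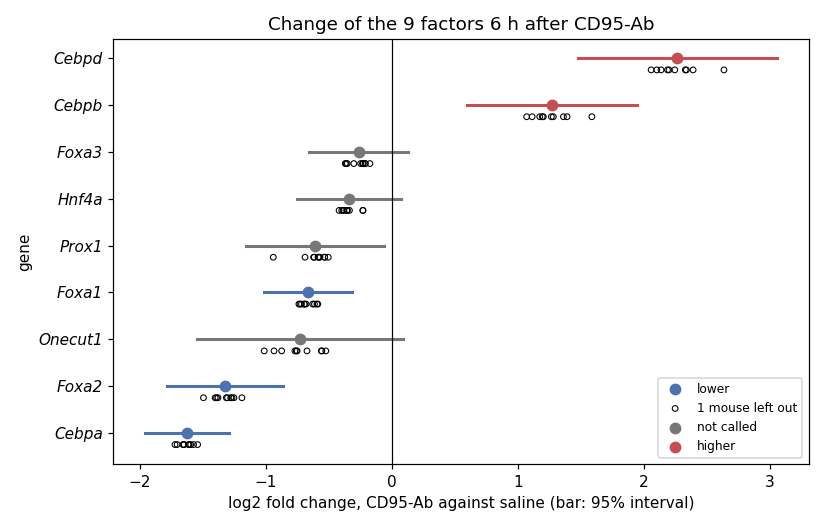
Log2 fold change of each factor in mice injected with CD95-Ab against saline-injected mice, with its 95% interval as a bar (edgeR, n = 5 mice per group), coloured by call, and as open circles the same value with each of the 10 mice left out in turn. The direction of each factor held in every such fit, the Prox1 value furthest to the left (-0.94) is the fit without CD95-Ab mouse 5, and that of Onecut1 (-1.01) is the fit without CD95-Ab mouse 4.

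Levels of different genes were compared on the FPKM scale, which corrects the fragments of a gene for its length, as deposited. In saline-injected mice the order of mean FPKM was Hnf4a (132 ± 28.4, SD, n = 5), Cebpa (93.7 ± 14.9), Cebpb (48.8 ± 17.0), Foxa3 (31.1 ± 4.92), Prox1 (16.0 ± 2.44), Foxa2 (4.83 ± 1.53), Cebpd (4.33 ± 2.03), Onecut1 (2.53 ± 1.07) and Foxa1 (2.45 ± 0.56). Hnf4a was above Cebpa in all 5 mice although the ranges touched, Cebpa was above Cebpb in 4 of 5, and Foxa3 and Prox1 were each clear of the next gene. The 4 genes at the bottom overlapped, each exceeding the next in 3 of 5 mice. After CD95-Ab the order began with Cebpb (112 ± 24.4, SD, n = 5), which was above Hnf4a (99.7 ± 27.4) in 2 of 5 mice, so these neighbours did not differ beyond their spread. Cebpa (28.1 ± 2.84), Foxa3 (24.7 ± 4.04) and Cebpd (20.3 ± 4.58) followed with overlapping ranges, ahead of Prox1 (10.1 ± 5.16), Foxa2 (1.77 ± 0.37), Foxa1 (1.45 ± 0.24) and Onecut1 (1.37 ± 0.78).

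The place of Cebpd in this order depends on the length assigned to it. Its deposited counts and FPKM imply a length of 1116 to 1128 bases, whereas the exons annotated in GENCODE release 21 span 3746 bases. With counts per kilobase of annotated exon, Cebpd moved from 7th to 9th in saline-injected mice, and Foxa1 from 9th to 7th, and after CD95-Ab Cebpd (6.37 ± 1.83, SD, n = 5) came 6th, behind Prox1 (9.39 ± 4.43).

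Within the C/EBP family the composition of the transcripts turned over. Cebpa supplied 68.3%, 77.3%, 60.7%, 67.6% and 46.5% of the summed FPKM of Cebpa, Cebpb and Cebpd in saline mice 1 to 5 and 19.1%, 15.2%, 18.0%, 15.0% and 21.6% in CD95-Ab mice 1 to 5. The share of Cebpb was 33.0% ± 10.2 (SD, n = 5) in saline-injected mice and 69.5% ± 2.50 after CD95-Ab, and that of Cebpd was 2.93% ± 1.29 and 12.7% ± 2.04. For all 3 genes the shares of the groups did not overlap. With the annotated exon length, chosen for this purpose after seeing the data, the share of Cebpd was lower, 0.93% ± 0.42 and 4.33% ± 0.77 (SD, n = 5), and that of Cebpb was 33.4% ± 10.7 and 75.9% ± 2.69. The sum of the 3 genes was 147 ± 5.91 FPKM (SD, n = 5, range 141 to 156) with saline and 161 ± 29.3 FPKM (range 131 to 199) with CD95-Ab, and these ranges overlapped. Among the FOXA genes, Foxa3 held the largest share in every mouse, 80.8% ± 5.71 with saline and 88.4% ± 1.11 after CD95-Ab, while Foxa2 went from 12.7% ± 4.30 to 6.31% ± 0.67 and Foxa1 from 6.45% ± 1.59 to 5.26% ± 0.98. The summed FPKM of the FOXA genes was 38.4 ± 4.57 and 27.9 ± 4.44.

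**Figure D3:**
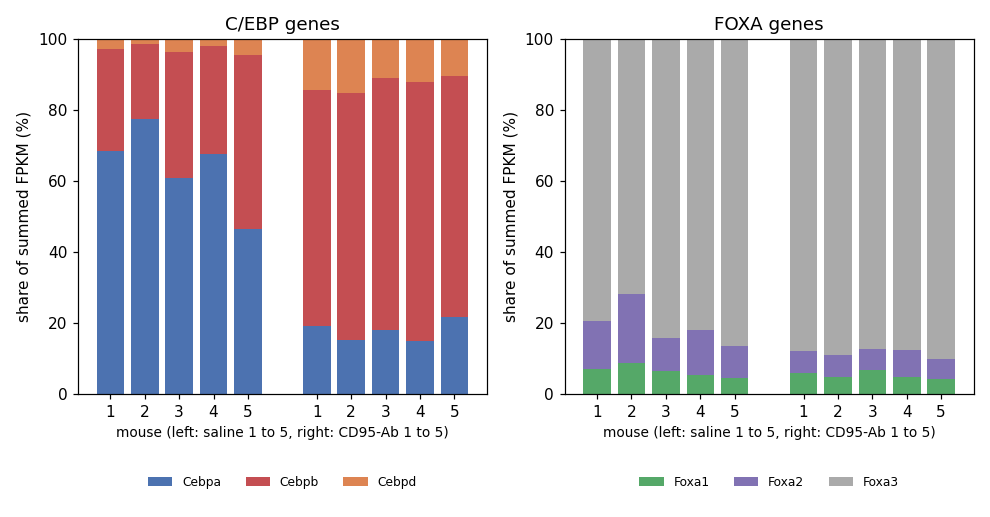
Share of the summed FPKM (%) of the 3 C/EBP genes (left) and of the 3 FOXA genes (right) in each mouse, saline mice 1 to 5 and then CD95-Ab mice 1 to 5. Cebpa holds 46.5% to 77.3% of the C/EBP sum in saline-injected mice and 15.0% to 21.6% after CD95-Ab, whereas Foxa3 remains the main FOXA transcript in all 10 mice.

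To test whether factors changed by different amounts, the log2 ratio of their CPM was taken within each mouse, which does not depend on how libraries are scaled, for 14 pairs (2-sided exact permutation test, Benjamini-Hochberg adjustment over the 14, smallest possible p = 0.00794). The log2 ratio of Cebpb to Cebpa was -2.08, -2.69, -1.60, -1.99 and -0.76 in saline mice 1 to 5 and 0.96, 1.36, 1.14, 1.44 and 0.82 in CD95-Ab mice 1 to 5. The groups did not overlap, and the difference was 2.97 (exact permutation p = 0.00794, adjusted p = 0.0222). Since CPM are not corrected for length, the sign of a single ratio does not give the order of the 2 genes, and in saline mouse 5 Cebpb was above Cebpa on the FPKM scale (76.4 and 72.8 FPKM). Cebpd rose against Cebpa by 4.04 and against Cebpb by 1.07, and Foxa2 fell against Foxa3 by 1.05, each without overlap of the groups (exact permutation, adjusted p = 0.0222 for each). The ratio of Foxa1 to Foxa2 rose by 0.64 with overlapping groups (exact permutation p = 0.0159, adjusted p = 0.0278). For Foxa1 to Foxa3 the difference of -0.41 did not pass (exact permutation, adjusted p = 0.211).

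Against Hnf4a in the same mouse, Cebpd rose by 2.74 (exact permutation, adjusted p = 0.0222), Cebpb rose by 1.68 and Cebpa fell by 1.29 (exact permutation, adjusted p = 0.0278 for both). Foxa2 to Hnf4a differed by -0.94 with p = 0.0397 by the exact permutation test and an adjusted p of 0.0617, and in CD95-Ab mouse 4, the mouse with the lowest Hnf4a, this ratio was among the saline values. Without that mouse the difference was -1.23 and passed, as did that of Foxa1 to Hnf4a at -0.51 (exact permutation, adjusted p = 0.0247 for both). The ratios of Foxa3, Onecut1 and Prox1 to Hnf4a differed by 0.11, -0.51 and -0.34, and none of the 3 passed (exact permutation, adjusted p of 0.714, 0.427 and 0.324). The calls of Foxa1 to Foxa2 and of Cebpa to Hnf4a were lost (adjusted p = 0.0556) when any mouse other than saline mouse 3 or CD95-Ab mouse 4 was left out. That of Cebpb to Hnf4a was lost in the same way without any mouse other than saline mouse 5, CD95-Ab mouse 1 or CD95-Ab mouse 4.

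**Figure D4:**
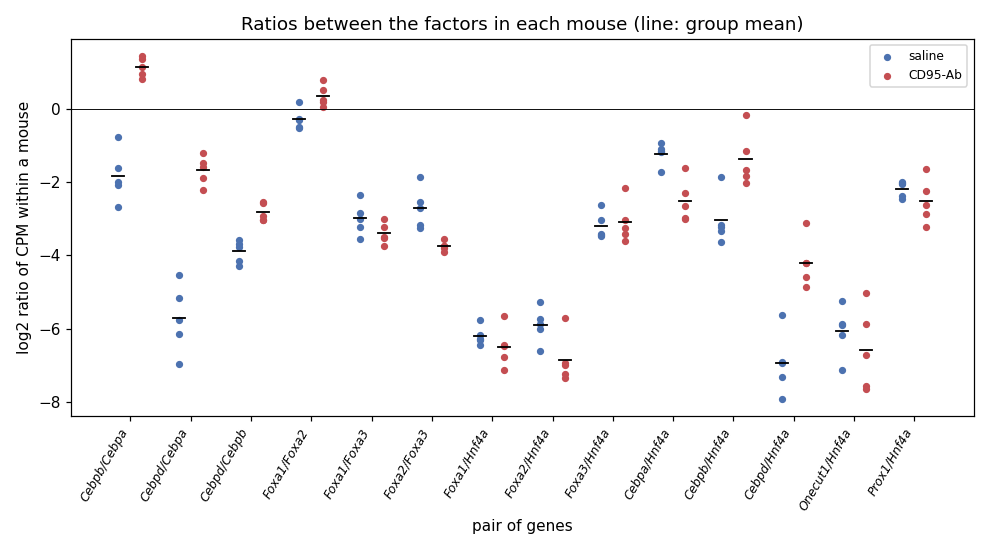
Log2 ratio of CPM between pairs of factors within each mouse (vertical axis), saline-injected mice in blue and mice injected with CD95-Ab in red, with the group mean as a line (n = 5 mice per group). The Cebpb to Cebpa ratio is at most -0.76 in saline-injected mice and at least 0.82 in mice injected with CD95-Ab, and for Foxa2 to Hnf4a CD95-Ab mouse 4 stands apart at -5.71.

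Of 22 other transcription factors of hepatocytes, 10 fell, 1 rose and 11 were not called. Thus 50.0% of them were called, where 47.3% of all tested genes were called, 25.4% higher and 22.0% lower. The median of the 22 was -0.46 on the log2 scale, where that of all tested genes was 0.01. Nr1i3, the nuclear receptor CAR that governs drug metabolism, fell from 191 ± 34.0 to 24.0 ± 12.9 CPM (SD, n = 5; log2 fold change -2.99 ± 0.32 SE, edgeR FDR = 2.06e-05). Klf15, a regulator of amino acid and glucose metabolism, fell by 2.18 and Tbx3, a T-box factor, by 1.91 on the log2 scale. The gene that rose was Nr0b2, the corepressor SHP, at 31.4 ± 9.43 and 52.6 ± 17.3 CPM (SD, n = 5; log2 fold change 0.74 ± 0.24 SE, edgeR FDR = 0.0242), and its groups overlapped. Its call was lost when saline mouse 1, 2 or 3 or CD95-Ab mouse 4 or 5 was left out.

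Of 13 coregulators that act with HNF4A, 2 fell, 1 rose and 10 were not called, and the median was -0.08 on the log2 scale. Thus 23.1% of the coregulators were called, where 47.3% of all tested genes were. The PGC-1 coactivators were those that fell, Ppargc1b by 2.87 and Ppargc1a by 1.52 on the log2 scale, from 6.34 ± 0.70 to 0.86 ± 0.23 CPM and from 7.98 ± 2.22 to 2.77 ± 1.53 CPM (SD, n = 5), both without overlap of the groups. Med14, a subunit of the Mediator complex, rose by 0.46 (edgeR FDR = 0.0425), a call that was lost in 8 of the 10 fits that left out 1 mouse, those without saline mouse 1, 2, 4 or 5 or without CD95-Ab mouse 1, 2, 3 or 5.

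Among 13 genes of other C/EBP proteins and bZIP partners, 5 rose, 6 fell and 2 were not called. In this list 84.6% were called, where 47.3% of all tested genes were. Atf3, a stress-induced bZIP factor, rose from 12.5 ± 10.6 to 249 ± 85.7 CPM (SD, n = 5; log2 fold change 4.31 ± 0.61 SE, edgeR FDR = 1.51e-04). Ddit3, which encodes CHOP, a C/EBP-related protein that dimerizes with C/EBPs, rose by 1.55, and Trib1, whose product directs C/EBPα to degradation, rose by 1.48, from 76.4 ± 22.0 to 214 ± 25.5 CPM, each without overlap of the groups. The 3 PAR bZIP factors of the circadian output, Dbp, Tef and Hlf, fell by 3.80, 2.35 and 2.14 on the log2 scale. Cebpe, the granulocyte member of the C/EBP family, was chosen for mention after its values were seen and fell from 4.14 to 1.47 CPM (log2 fold change -1.49, edgeR FDR = 3.06e-04).

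Of 17 genes for cytokines, receptors and factors known to act upstream of Cebpb and Cebpd, 15 rose, and the other 2, Il6ra and Creb1, were not called at log2 fold changes of -0.34 and 0.32. Thus 88.2% of this list rose, where 25.4% of all tested genes did. Stat3, the factor through which interleukin 6 acts on the liver, rose from 114 ± 8.21 to 224 ± 35.6 CPM (SD, n = 5; log2 fold change 0.97 ± 0.13 SE, edgeR FDR = 1.03e-04), and Socs3, the feedback inhibitor of that pathway, from 16.1 ± 8.79 to 190 ± 74.1 CPM (log2 fold change 3.56 ± 0.43 SE). The cytokines Lif, Osm, Tnf and Il6 were near the limit of counting in saline-injected mice, with 3, 6, 14 and 18 counts in all 5 of them together. Their means after CD95-Ab were 11.6, 3.27, 3.65 and 1.31 CPM. The called genes with the smallest changes were Jak1, Crem and Tnfrsf1a, at log2 fold changes of 0.74, 0.95 and 0.96.

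Known target genes of the factors were listed as acute phase genes and as other hepatocyte genes. The lists were chosen with earlier results of these data known, so their division is a description and no test. Of 24 acute phase genes known as C/EBP targets, 22 rose (median of the list 1.62 on the log2 scale), and the other 2, Itih4 and C3, were not called at log2 fold changes of 0.85 and 0.50. Thus 91.7% of the acute phase list rose, where 25.4% of all tested genes did. Saa3 rose from 7.31 ± 5.29 to 635 ± 329 CPM and Lcn2, an iron-sequestering defence protein, from 29.6 ± 21.2 to 1771 ± 678 CPM (SD, n = 5), with log2 fold changes of 6.44 and 5.90. Il1rn, the interleukin 1 receptor antagonist, rose by 5.89, and the smallest called rises were those of the fibrinogen chains Fgb (0.87) and Fgg (0.93) and of Itih3 (0.95). Of 30 other hepatocyte target genes, 17 fell, 1 rose and 12 were not called, with a median of -0.61. Among all tested genes, 22.0% were called lower and 25.4% higher, and their median was 0.01. Cyp7a1, the rate-limiting enzyme of bile acid synthesis, fell from 50.0 ± 13.0 to 1.11 ± 0.64 CPM (log2 fold change -5.46 ± 0.39 SE, edgeR FDR = 1.38e-06). G6pc, the last enzyme of gluconeogenesis, fell by 4.16 and Cyp8b1, a sterol hydroxylase of the bile acid pathway, by 2.39, whereas Mttp and Otc fell least, by 0.56 and 0.59. Igfbp1, an insulin-like growth factor binding protein, rose by 2.29.

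**Figure D5:**
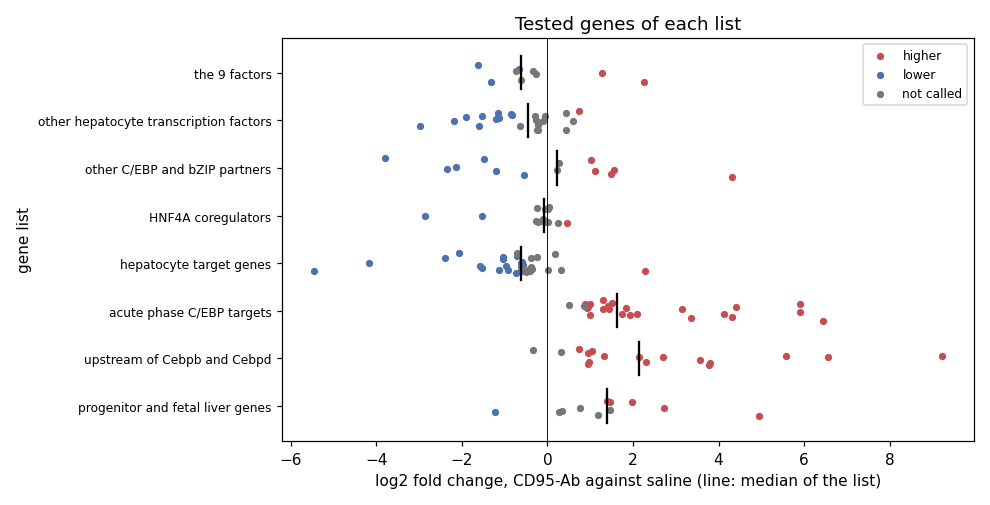
Log2 fold change, CD95-Ab against saline, of each tested gene of the 9 factors and of 7 gene lists, coloured by call, with the median of a list as a line. Called acute phase and upstream genes lie to the right of 0 and most called genes of the hepatocyte lists to the left, while the upstream genes furthest to the right, Lif, Osm and Tnf, rest on 3, 6 and 14 counts in saline-injected mice.

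Whole liver holds other cells, and a lower share of hepatocytes and less RNA of a gene per hepatocyte cannot be told apart here. Hepatocyte markers were abundant in every mouse, and the summed CPM of 8 hepatocyte markers was 111947 to 137226 in saline-injected mice and 64990 to 102336 after CD95-Ab, with Alb and Ttr lower, Fgb higher and 5 of 8 not called. For neutrophils, all 5 tested markers of 7 rose, where 25.4% of all tested genes did. The summed level of the neutrophil markers was 4.12 to 10.4 CPM with saline and 102 to 409 CPM with CD95-Ab. Called rises numbered 3 of 8 for Kupffer cells (133 to 455 and 278 to 594 CPM), 6 of 8 for endothelium (53.5 to 120 and 182 to 379 CPM), 4 of 7 for stellate cells (139 to 217 and 318 to 600 CPM) and 4 of 5 tested for cholangiocytes (18.4 to 33.9 and 48.4 to 186 CPM). They were 5 of 7 for lymphocytes (1.44 to 5.10 and 6.45 to 14.3 CPM) and 5 of 5 for erythroid cells (135 to 323 and 1064 to 33995 CPM). For adipocytes both tested genes of 5, Cidec and Fabp4, rose (2.28 to 12.8 and 24.2 to 89.0 CPM). Adipoq, Plin1 and Lep, with at most 16, 1 and 1 counts in any mouse, were not tested, and Adipoq and Lep were at 0 in every CD95-Ab mouse. The 1 tested gene of 6 for pancreatic acinar cells was not called (7.86 to 17.6 and 5.81 to 15.8 CPM). No marker was at 0 in every mouse. Cebpb and Cebpd are also expressed by myeloid cells, and the part of these cells in the rises of Cebpb and Cebpd, or of fewer hepatocytes in the falls of Cebpa, Foxa1 and Foxa2, was not tested. The part of other cells in the rises of the acute phase genes was not tested either.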

How the data were processed

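RNA-seq of 10 livers was analysed, 5 from saline-injected mice and 5 from mice injected with CD95-Ab, grouped by the sample labels. The authors deposited for each gene and mouse the expected count of RSEM (version 1.2.19) and its FPKM. The expected counts that the authors deposited were whole numbers and not normalized. The FPKM values that the authors deposited were scaled by RSEM for length and total. RSEM shares reads that match several genes between them, which can move values of overlapping genes. A human release of Gencode is given in the methods of the study, but the identifiers are of mouse genes, and the mouse release and build are not given in the sources used here. Symbols and positions come from GENCODE mouse release 21 (GRCm38), which held 37606 of the 38922 identifiers.

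Counts were filtered by filterByExpr (minimum count 10), scaled by TMM and compared between groups by edgeR 4.0.16 (quasi-likelihood test, no covariate) under R 4.3.3. Standard errors came from the F statistic. Alternatives were DESeq2 1.42.0, limma 3.58.1 on log2(FPKM + 0.1), the likelihood ratio test, other factors and filters, a prior count of 2, a block by replicate number and fits that left out single mice. Leaving out both libraries with the lowest TMM factors was chosen after seeing the data. Ratios used log2(CPM + 0.1), or a pseudocount of 1, with exact permutation tests in scipy 1.17.1. Other steps used Python 3.11.15, pandas 2.3.3 and matplotlib 3.10.9. The code was tested on simulated counts of 13483 genes with 200 changed. It recovered 63.4% of the genes given a change of 1 (log2) and 100% of those given 1.5, and 2.5% of calls were false. The changed genes were drawn from well-counted genes, and all genes had the same dispersion of 0.08. These rates therefore need not hold for the measured data, where far more genes were called, or for the factors with low counts.

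The 9 factors and all gene lists were chosen with earlier results of these data known. Of each list, the 3 largest and 3 smallest called log2 fold changes and named partners of the factors were eligible for the text, not all of which are given, and 3 genes of similar profile were found for each factor. The labels do not say that mice with the same number are related, and each label is a separate mouse. The smallest p that 5 mice against 5 allow is 0.00794. One listed gene and 1 of the motifs searched are not reported here.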

Additional observations from a re-analysis of the deposited data

Results flagged for a closer look

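In a test for single mice far from the other 4 of their group (Dixon's test at 95%), 13 of 132 groups of 5 were singled out, 9.8%, where chance gives about 1 in 20. Prox1 in CD95-Ab mouse 5 was at 144 CPM, with 56.1 to 73.9 CPM in the other CD95-Ab mice. The log2 ratio of Foxa2 to Hnf4a in CD95-Ab mouse 4 was -5.71, with -7.36 to -6.95 in the other CD95-Ab mice. The log2 ratio of Cebpb to Hnf4a in saline mouse 5 was -1.86, with -3.63 to -3.18 in the other saline mice.

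Among genes of the lists, CD95-Ab mouse 1 was above its group for Klf15 (37.8 CPM), Dbp (19.1 CPM) and Tef (71.5 CPM), where the others reached at most 28.1, 2.47 and 20.3 CPM. CD95-Ab mouse 4 was below its group for Mttp at 115 CPM and above it for Osm at 7.23 CPM and Tnf at 7.75 CPM. CD95-Ab mouse 3 was above its group for the cholangiocyte genes Krt19 at 6.29 CPM and Epcam at 3.15 CPM. Saline mouse 2 was below its group for Igfbp1 at 136 CPM and above it for Il1rn at 7.56 CPM.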

How the results depend on the processing

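Of 189 log2 fold changes of the 9 factors under 21 alternative analyses, 181 kept their direction and their side of the threshold and 8 passed it where the reported value had not. Cebpa, Cebpb, Cebpd, Foxa1 and Foxa2 were called in all 21. Prox1 passed with upper quartile factors (-0.68), DESeq2 (-0.63), the likelihood ratio test (-0.61), limma on FPKM (-0.77) and without CD95-Ab mouse 5, and spanned -0.94 to -0.51 when single mice were left out, as Onecut1 spanned -1.01 to -0.53. With the replicate number as a block, Prox1 (-0.70) and Onecut1 (-0.86) both passed and 5 factors were called lower. Deviations of same-numbered mice correlated at 0.257, 0.087, 0.13, -0.017 and -0.274, within the -0.354 to 0.507 of differently numbered mice. Correlations of this kind cannot exclude that the numbers pair the mice, and the labels do not say. Of 182 ratio values, 155 were unchanged in call, 23 lost it and 4 gained it. When single mice were left out, Foxa1 to Foxa2 spanned 0.54 to 0.76, Cebpa to Hnf4a -1.52 to -1.17, Cebpb to Hnf4a 1.38 to 1.97, Foxa1 to Hnf4a -0.51 to -0.14 and Foxa2 to Hnf4a -1.23 to -0.79, and the smallest p of the 9 remaining mice was 0.0159. Without both libraries of lowest TMM factor, Foxa1 to Hnf4a (-0.50) and Foxa2 to Hnf4a (-1.22) passed. The count of HNF4A coregulators called higher was 0 with every gene of at least 1 count and with the replicate block, and 0 to 1 without single mice. That of other hepatocyte transcription factors stayed at 1 in both of those settings and was also 0 to 1 without single mice. Other factors and filters left the median of all genes within 0.1 of its value. No log2 fold change of the 9 factors and no called ratio reversed its direction. The ratio of Foxa3 to Hnf4a, which was not called, changed sign without CD95-Ab mouse 4. The median of all genes went from 0.01 to -0.07 with upper quartile factors. Changes as small as those of Hnf4a and Foxa3 can be missed with 5 mice per group.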

Other observations

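Genes of fetal liver and of biliary or progenitor cells were examined beside the hepatocyte factors. Of 13 such genes 11 were tested, 5 rose, 1 fell and 5 were not called, with a median of 1.40 on the log2 scale. Thus 54.5% of the tested genes of this list were called, near the 47.3% of all tested genes. Of all tested genes, 25.4% were called higher and 22.0% lower, and their median was 0.01. Sox9, a factor of biliary and progenitor cells, rose from 1.91 ± 0.88 to 58.4 ± 26.0 CPM (SD, n = 5; log2 fold change 4.95 ± 0.43 SE, edgeR FDR = 4.68e-06). Cd24a rose by 2.73, Krt19 by 1.99, Spp1 by 1.46 and Epcam by 1.40. Afp, the fetal counterpart of albumin, fell from 1.63 ± 0.70 to 0.68 ± 0.20 CPM (log2 fold change -1.24, edgeR FDR = 0.00882), without overlap of the groups. Sox9, Krt19, Spp1 and Epcam also stand on the cholangiocyte marker list, so the 2 lists are not independent.

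The protein-coding genes whose profiles over the 10 mice were closest to a factor, of 12749 compared, are given by the root mean square difference of log2 CPM centred on the saline mean. Closest to Cebpa were Zkscan14 (0.19), Calcoco1 (0.19) and Oaf (0.20), to Cebpb Tmem132e (0.19), Lgals1 (0.21) and Stab1 (0.21), and to Foxa2 Zfp39 (0.17), Pde9a (0.20) and Shf (0.22). The profile of Cebpd had no neighbour as near, the closest being Maff (0.37), a small MAF bZIP factor that rose from 16.5 to 69.4 CPM, then Gp5 (0.38) and Adcy1 (0.39). For Hnf4a the closest were Zfp770, Tgfbrap1 and Rb1cc1, for Foxa1 Msrb1, Zscan2 and Tcf7l1, for Foxa3 Khdrbs3, Arpc5l and Tubg1, for Onecut1 Slc25a35, Zdhhc14 and Fam228b, and for Prox1 Brdt, 4933427I04Rik and 5730455P16Rik. A likeness of this kind follows the group difference and says nothing of shared function.

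Protein-coding genes with a single exon block, like the 3 C/EBP genes, were called higher in 26.0% and lower in 18.4% of 288 tested cases, and genes with more blocks in 25.8% and 22.3% of 12461.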
